A study of Mus musculus with 10 samples.

Results

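The genes of BMP and ALK1 signaling were followed in dermal lymphatic endothelial cells (LECs) and blood vascular endothelial cells (BECs) of mouse ear skin. The 10 genes were taken by symbol: the ligand genes Bmp2, Bmp4, Bmp6, and Bmp7, the receptor genes Acvrl1 (which encodes ALK1), Bmpr2, and Eng (endoglin), the inhibitory Smad genes Smad6 and Smad7, and the target gene Id1. All 10 were found among the 42520 genes shared by the 8 plate count tables and among the 32245 genes of the droplet matrices. For Eng, the mouse gene alone was read, and a row for human ENG that some plate tables carry was left out.

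LECs were sorted as live CD31+ PDPN+ CD45- CD11b- Ter119- cells and sequenced singly by Smart-seq, with 2 plates for each of 4 genotypes. Mice floxed at Tie1 (Tie1 fl/fl) were the controls of Prox1CreERT2 carriers with the same floxed gene (Tie1 iΔLEC). Mice floxed at both Tie1 and Tie2 (Tie1 Tie2 fl/fl) were likewise the controls of their Prox1CreERT2 littermates (Tie1 Tie2 iΔLEC). All pups, the Cre-negative controls included, received 62.5 µg of 4-hydroxytamoxifen on P1 to P5, which activates the Cre. The Prox1 promoter drives this Cre in lymphatic endothelium, so the deletion was restricted to cells that express Prox1. In the Tie1 strain the first plate of each genotype came from females and the second from males, and the plates of the Tie1 Tie2 strain came from males. How many mice contributed to a plate is not stated, so p-values measure only the spread between plates, which may be technical. In a second experiment CD31+ CD45- TER119- cells of wild-type C57Bl/6j males were captured in droplets, 1 library after control IgG and 1 after an antibody to Ang2 (Ang2 Ab, clone 18E5), each dosed at 20 mg/kg over P16 to P21. The title of the Ang2 Ab library also holds the word control, and its treatment field was followed.

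BMP ligands are secreted dimers that assemble pairs of type I and type II receptor kinases on the cell surface. ALK1 is the type I receptor that marks endothelium, BMPR2 is a type II receptor, and endoglin is a co-receptor that presents circulating ligands to ALK1. The receptors phosphorylate SMAD1, SMAD5, and SMAD9, which enter the nucleus with SMAD4 and switch on genes such as Id1. SMAD6 and SMAD7 are induced by the same signal and shut it off at the receptor. In lymphatic endothelium ALK1 signaling is known for its part in vessel caliber and valve formation, and loss of ENG or ACVRL1 in people causes hereditary hemorrhagic telangiectasia.

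The promoter bases before the annotated start of 3 genes are shown because the results turn on them. Bmp4 was the 1 member called after Tie1/-2 deletion, Eng was the most abundant member, and Id2, a BMP target outside the 10, was called in the opposite direction to Bmp4. Each run is the 250 bases before the RefSeq start, on the gene's own strand in GRCm38.p6, and capitals mark motif matches.

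Bmp4 (chr14:46390670-46390919, minus strand): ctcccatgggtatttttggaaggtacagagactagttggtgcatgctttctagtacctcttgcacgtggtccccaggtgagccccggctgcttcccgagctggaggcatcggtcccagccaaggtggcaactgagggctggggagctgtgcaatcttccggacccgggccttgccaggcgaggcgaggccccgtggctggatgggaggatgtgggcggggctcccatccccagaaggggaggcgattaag

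Eng (chr2:32646345-32646594, plus strand): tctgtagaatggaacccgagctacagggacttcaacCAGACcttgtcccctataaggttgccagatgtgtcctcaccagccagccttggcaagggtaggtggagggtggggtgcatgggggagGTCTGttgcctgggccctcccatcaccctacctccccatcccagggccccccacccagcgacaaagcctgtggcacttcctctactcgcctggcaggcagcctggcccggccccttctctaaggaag

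Id2 (chr12:25096093-25096342, minus strand): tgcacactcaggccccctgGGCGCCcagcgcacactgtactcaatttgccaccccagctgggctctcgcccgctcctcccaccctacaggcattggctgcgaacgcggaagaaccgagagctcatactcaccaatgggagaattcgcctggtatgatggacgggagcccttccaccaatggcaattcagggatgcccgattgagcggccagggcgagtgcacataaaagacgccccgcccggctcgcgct

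The motifs searched on both strands were GGCGCC and GTCTG, which are short elements that Smads can bind, and GTAAACA, a forkhead element. GGCGCC was present in 9.59% of the 32851 promoter windows of this length, GTCTG in 42.2%, and GTAAACA in 3.17%. The Eng run held GTCTG at position -127 and, on the reverse strand, at position -214 from the start. The Id2 run held GGCGCC at position -231. No match was present in these bases of Bmp4. In the same search Smad1, Smad6, and Fstl1 also had no match. Bmpr2 had GGCGCC at position -105, and Bmp6 had GTCTG on the reverse strand at position -119. The matches therefore did not follow the direction of change of the genes. A match is a description of the letters and not a site of binding.

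Before the members are described, some properties of the libraries need to be stated. The plate tables held 71309205 to 110741537 counts each, and 2689 of 3048 wells were kept as LECs. The tables have 2 layouts, naming genes by symbol or by identifier, with 1 plate of each layout in every genotype. Wells of the symbol layout had a median of 5946.5 to 7023 detected genes, and wells of the identifier layout 3692.5 to 5111, so the share of wells in which a member was detected followed the layout. Bmpr2, for example, had a count in 57.1% to 73.5% of LECs of the symbol layout and in 23.6% to 41.0% of the others. The layouts are the only batch that the files show, and within each strain the first plates of the control and the deleted group share a layout, as do the second plates, so the values given first, and those given second, can be compared directly. Tie1 was at 2208 and 2885 CPM (counts scaled to 1000000 for the LEC sum, with edgeR's TMM factors) in Tie1 fl/fl, 2768 and 2555 in Tie1 Tie2 fl/fl, 678 and 634 in Tie1 iΔLEC, and 711 and 457 in Tie1 Tie2 iΔLEC. Tek, which encodes Tie2, was at 33.0 and 53.6 CPM in Tie1 Tie2 iΔLEC and at 210 to 342 CPM on the other 6 plates. The LEC defining list of 8 genes summed to 9897 and 9859 CPM in Tie1 Tie2 fl/fl and to 9334 and 8506 CPM in Tie1 Tie2 iΔLEC. The droplet libraries held 4685 and 4331 barcodes, of which 3418 and 2961 were kept, and they shared 5 barcodes, 2 of them among the kept cells.

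The order of the members in LECs was first established on the 4 control plates, where levels of different genes were compared as CPM per kilobase of exon. Eng was the highest at 386 ± 55.6 (SD, n = 4), followed by Id1 at 82.9 ± 25.0, Acvrl1 at 52.2 ± 10.8, and Bmp4 at 20.1 ± 5.07. The ranges over the 4 plates of these genes did not overlap except between Id1 and Acvrl1. Bmp6 at 2.96 ± 2.05, Bmp7 at 2.74 ± 2.13, and Bmpr2 at 2.69 ± 0.248 did not differ beyond their spread. Smad7 was at 0.0676, Smad6 at 0.0673, and Bmp2 at 0.00668 as the mean of the control plates, each resting on a few counts. Among the members, Eng and Acvrl1 were thus the highest receptor genes by this measure and Bmp4 the highest ligand gene. The value of Bmpr2 depends on its long annotated exons (17.983 kb). In LECs of the droplet libraries, described below, Bmpr2 had more UMIs than Acvrl1. Transcripts of both inhibitory Smads were close to absent on these plates.

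The ligand gene Bmp4 (GRCm38 chromosome 14, 46383520 to 46390669, minus strand) encodes a secreted growth factor of the BMP2/4 group. In LECs of each plate it was at 49.4 and 32.6 CPM in Tie1 fl/fl, 35.4 and 20.6 in Tie1 iΔLEC, 59.0 and 40.2 in Tie1 Tie2 fl/fl, and 5.37 and 8.84 in Tie1 Tie2 iΔLEC. Both Tie1 Tie2 iΔLEC plates were below all 6 others, while the ranges of Tie1 fl/fl and Tie1 iΔLEC overlapped. The share of LECs with a Bmp4 count was 4.26% and 9.14% in Tie1 Tie2 iΔLEC and 20.4% to 61.1% elsewhere. In the identifier layout the step was from 59.0 to 5.37 CPM and in the symbol layout from 40.2 to 8.84 CPM. Bmp4 fell by 2.80 on the log2 scale after Tie1/-2 deletion (SE 0.45, edgeR quasi-likelihood test, Benjamini-Hochberg adjusted p = 0.0284), and by 2.88 with layout as a term (adjusted p = 0.0369). It was the 1 member of 10 called (adjusted p under 0.05) in this comparison, where 229 of 19835 genes, 1.15%, were called, 59 higher and 170 lower. After Tie1 deletion Bmp4 had a log2 change of -0.55 (SE 0.42, edgeR adjusted p = 1.0). The call rested on all 4 plates of the Tie1 Tie2 strain, since without any 1 of them the edgeR adjusted p was 0.0623 to 0.148, with log2 changes of -3.21 to -2.51. Over all 16 alternatives the adjusted p ranged from 4.04e-08 to 0.861, and it passed the threshold in 10.

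Bmp6 (chromosome 13, 38345107 to 38500302, plus strand), a ligand best known for setting hepcidin and made by endothelium of the liver, had higher values after both deletions. It was at 22.3 and 5.76 CPM in Tie1 fl/fl, 38.5 and 26.0 in Tie1 iΔLEC, 12.9 and 5.26 in Tie1 Tie2 fl/fl, and 36.2 and 35.8 in Tie1 Tie2 iΔLEC. The deleted plates lay above their own controls in both strains. With Tie1/-2 deletion the log2 change was 1.99 (SE 0.68, edgeR adjusted p = 0.330), and with Tie1 deletion it was 1.20 (SE 0.66, adjusted p = 1.0). Neither passed the test, although the change with Tie1/-2 deletion passed the threshold in 1 of 16 alternatives. The average of both deletions had a log2 change of 1.59 (edgeR adjusted p = 0.264), in a comparison that called 186 of 19835 genes, 0.938%.

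Bmp7 (chromosome 2, 172868012 to 172940321, minus strand), a ligand of the BMP5/6/7 group, was at 9.29 and 23.6 CPM in Tie1 fl/fl, 23.5 and 18.8 in Tie1 iΔLEC, 5.36 and 5.81 in Tie1 Tie2 fl/fl, and 3.46 and 12.96 in Tie1 Tie2 iΔLEC. The deleted and control plates overlapped in both strains, and the log2 change with Tie1/-2 deletion was 0.56 (SE 0.68, edgeR adjusted p = 0.879). Bmp2 (chromosome 2, 133552159 to 133562885, plus strand) was almost absent from control LECs, with 1, 0, 5, and 2 counts on the 4 plates. On the first Tie1 iΔLEC plate it had 450 counts spread over 32 wells, against 4 counts on the second, and on the second Tie1 Tie2 iΔLEC plate it had 81 counts in 2 wells, against 0 on the first. Its fitted changes therefore turn on single plates, and no direction is read from them.

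**Figure D1:**
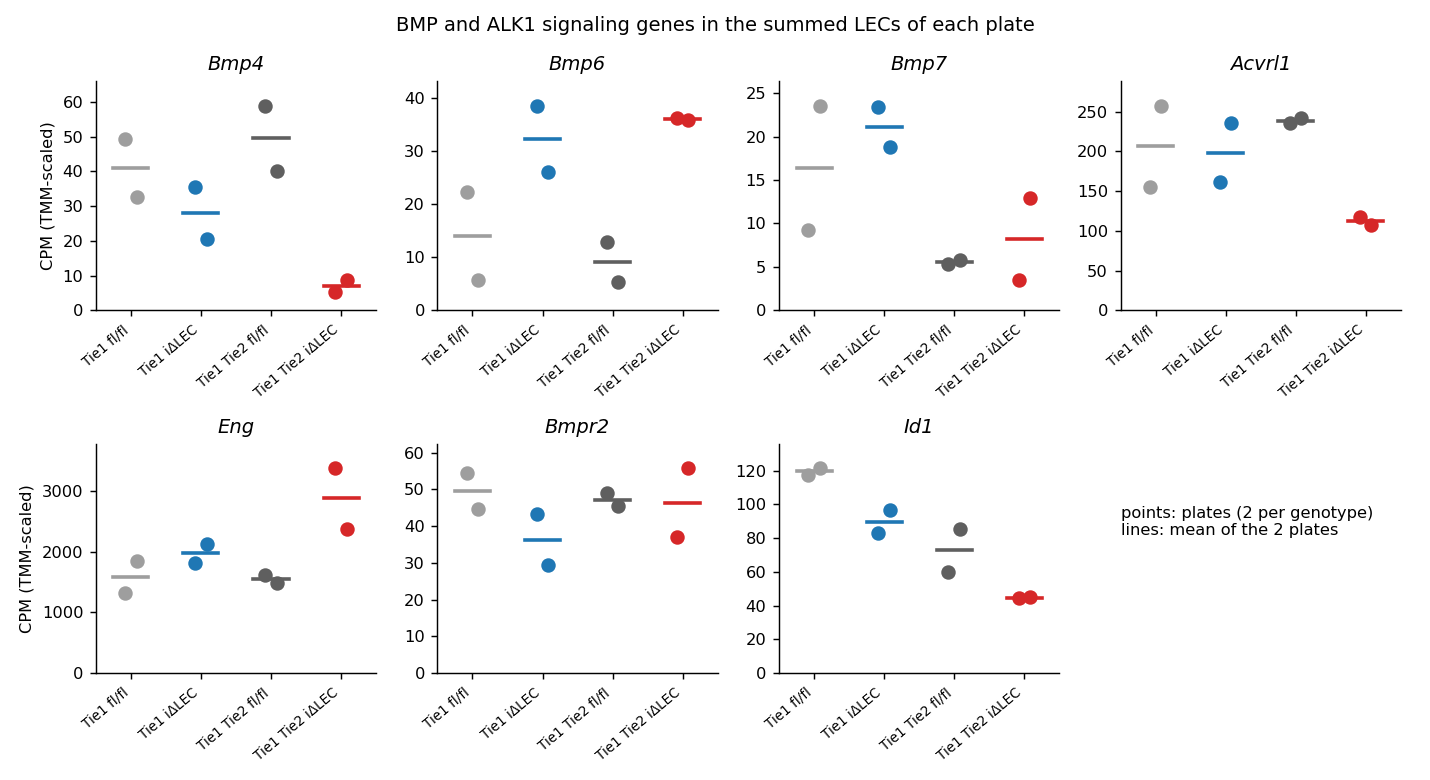
Levels of 7 members in the summed LECs of each plate, in CPM, for the 4 genotypes. Points are plates and lines are the mean of 2 plates. Bmp4 at 5.37 and 8.84 CPM and Acvrl1 at 118 and 107 CPM were lowest in Tie1 Tie2 iΔLEC, and Eng at 3379 and 2383 CPM was highest there.

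Among the receptors, Acvrl1 (chromosome 15, 101128522 to 101145336, plus strand) was at 155 and 258 CPM in Tie1 fl/fl, 161 and 236 in Tie1 iΔLEC, 236 and 242 in Tie1 Tie2 fl/fl, and 118 and 107 in Tie1 Tie2 iΔLEC. The Tie1 Tie2 iΔLEC plates were again below all 6 others. Across all genes Acvrl1 did not pass the test with Tie1/-2 deletion, apart from 1 of 16 alternatives. The log2 change was -1.08 (SE 0.30, unadjusted p = 0.00633, edgeR adjusted p = 0.209). With Tie1 deletion it was -0.06 (SE 0.29, edgeR adjusted p = 1.0), and leaving out a plate moved that value between -0.37 and 0.36.

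The co-receptor gene Eng (chromosome 2, 32646595 to 32682669, plus strand) had a count in 99.4% to 100% of LECs on every plate. It was at 1315 and 1848 CPM in Tie1 fl/fl, 1821 and 2128 in Tie1 iΔLEC, 1610 and 1478 in Tie1 Tie2 fl/fl, and 3379 and 2383 in Tie1 Tie2 iΔLEC. Both Tie1 Tie2 iΔLEC plates were above all 6 others, opposite to Acvrl1, whose product it assists. The log2 change with Tie1/-2 deletion was 0.90 (SE 0.23, unadjusted p = 0.0047, edgeR adjusted p = 0.177), and it passed the threshold when the table layout was a term (adjusted p = 0.0414) and without a filter on low counts (adjusted p = 0.00968). With Tie1 deletion it was 0.32 (SE 0.23, edgeR adjusted p = 1.0). Bmpr2 (chromosome 1, 59763400 to 59879014, plus strand) was at 54.4 and 44.6 CPM in Tie1 fl/fl, 43.2 and 29.4 in Tie1 iΔLEC, 48.9 and 45.3 in Tie1 Tie2 fl/fl, and 37.1 and 55.7 in Tie1 Tie2 iΔLEC. Its log2 change with Tie1/-2 deletion was -0.02 (SE 0.32, edgeR adjusted p = 0.997). With Tie1 deletion each plate lay below the control plate of its layout, with a log2 change of -0.45 (SE 0.32, adjusted p = 1.0) that did not pass the test and was -0.75 to -0.21 over 17 alternatives.

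The inhibitory Smads were at the edge of detection on the plates. Smad6 (chromosome 9, 63953076 to 64022059, minus strand) had 48 and 7 counts in Tie1 fl/fl, 12 and 2 in Tie1 iΔLEC, 9 and 13 in Tie1 Tie2 fl/fl, and 0 and 0 in Tie1 Tie2 iΔLEC, from at most 6 wells of a plate. Smad7 (chromosome 18, 75367529 to 75395935, plus strand) had 4 and 71, 34 and 13, 12 and 6, and 2 and 70 counts in the same order, from at most 9 wells of a plate. No difference in these genes could be read from so few counts and wells.

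Id1 (chromosome 2, 152736251 to 152737410, plus strand), which encodes an inhibitor of helix-loop-helix transcription factors and is among the most direct BMP targets, was at 118 and 121 CPM in Tie1 fl/fl and at 82.8 and 96.5 in Tie1 iΔLEC. It was at 60.04 and 85.3 CPM in Tie1 Tie2 fl/fl and at 44.3 and 45.0 in Tie1 Tie2 iΔLEC. In both strains the deleted plates lay below their controls, and the control plates of the strains themselves did not overlap. With Tie1/-2 deletion the log2 change was -0.70 (SE 0.25, edgeR adjusted p = 0.359), and with Tie1 deletion it was -0.42 (SE 0.25, adjusted p = 1.0). Neither passed.

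With Tie1 deletion none of the 10 members was called, as was the case for all 19835 genes, 0.0%, by edgeR. Tie1 itself was thus not called, although both deleted plates lay well below both controls. A missing call in this comparison therefore does not show that a gene was unchanged. In that comparison 864 genes had an unadjusted p under 0.05, and DESeq2 called 226. The deletions share no control plates, and whether their effects differ was tested directly. That test called 22 genes, 0.111%, with no member among them. Bmp4 had a difference of -2.25 on the log2 scale (SE 0.61, edgeR adjusted p = 0.376, against 0.0207 by DESeq2), Acvrl1 -1.03 (adjusted p = 0.625), and Eng 0.58 (adjusted p = 0.810). By edgeR, Tie1 and Tie1/-2 deletion were therefore not shown to differ in any member. In the average of both deletions no member was called either, with Bmp4 closest at a log2 change of -1.68 (SE 0.31, edgeR adjusted p = 0.0562).

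The rest of the pathway was read from 7 lists. After Tie1/-2 deletion 1 of 12 tested ligands fell (Bmp4) and none rose, with a median log2 change of -0.21 against 0.0 over all genes, of which 1.15% were called, 59 higher and 170 lower. None of 9 receptors was called, with a median of -0.21, and 1 of 5 co-receptors fell, with a median of -0.46. Of 13 antagonists 1 fell, with a median of -0.33. Of 8 Smads and regulators 1 rose, with a median of 0.17, and of 13 BMP target genes 1 rose and 2 fell, with a median of -0.04. None of 9 genes of the TGF-beta branch was called, with a median of -0.11. With 5 to 13 tested genes in a list, a call or its absence is not read as particular to the list. The medians of the lists that hold Bmp2, Smad6, or Smad7 include fitted values that rest on few counts. The lists overlap, since Bambi is both a co-receptor and a target, and Smad6 and Smad7 stand among the Smads and among the targets.

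The called genes outside the 10 moved both ways. Smad1, which encodes a Smad that BMP receptors phosphorylate, was at 362.0 and 306.7 CPM in Tie1 Tie2 fl/fl and at 814.9 and 679.4 CPM in Tie1 Tie2 iΔLEC, and rose by 1.16 on the log2 scale (SE 0.20, edgeR adjusted p = 0.0353). Id2, a relative of Id1, was at 66.7 and 69.2 CPM against 169.6 and 257.1 CPM and rose by 1.65 (SE 0.27, edgeR adjusted p = 0.0314). These are a signal carrier and a target, and both were higher on each deleted plate than on any other plate.

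Hey1, a transcriptional repressor that responds to both BMP and Notch, was at 103.2 and 91.7 CPM in Tie1 Tie2 fl/fl and at 10.0 and 13.1 CPM in Tie1 Tie2 iΔLEC, and fell by 3.07 (SE 0.39, edgeR adjusted p = 0.00986). Bambi, a decoy receptor that lacks a kinase domain, was at 108.5 and 92.6 CPM against 24.5 and 10.1 CPM and fell by 2.54 (SE 0.42, edgeR adjusted p = 0.0313). Fstl1, a secreted follistatin-like protein that can bind BMP4, was at 1162 and 1282 CPM against 656 and 632 CPM and fell by 0.92 (SE 0.16, edgeR adjusted p = 0.0353). Among the genes that BMP signals are known to induce, Id2 rose, Hey1 and Bambi fell, and Id1 and Id3 did not pass the test. Id3 was at 212 and 272 CPM in Tie1 Tie2 fl/fl and at 242 and 239 CPM in Tie1 Tie2 iΔLEC. In the average of both deletions Hey1 fell by 1.55 (edgeR adjusted p = 0.0418) and Smad1 rose by 0.87 (adjusted p = 0.0337). The adjusted p of these 5 genes passed the threshold in 13 of 16 alternatives for Hey1, 9 for Id2, 8 for Bambi, 6 for Smad1, and 5 for Fstl1, and no sign changed. Of the TGF-beta branch, Tgfbr2 (log2 change -0.21, edgeR adjusted p = 0.927) and Tgfb3 (-0.53, adjusted p = 0.560) had the highest control levels.

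The levels were next examined by class of LEC. The wells were clustered without any gene of the lists, and clusters were named from marker genes. A collector-like class had 7 of 7 collecting vessel markers raised, and a valve-like class, made of 2 clusters, had 5 of 5 and 4 of 5 valve markers raised. Cluster 0 had Lyve1, Reln, Piezo2, and Slco2b1 raised, which mark lymphatic capillaries, but no capillary marker was among its 10 leading genes (Kcnj8, Mest, Aqp1, Copg2, Ptx3, Mrc1, Mgll, Igfbp4, Rasa4, and Bmp7), so it is called by its number. The other LEC clusters were left out of this step. Of these, the unnamed clusters alone held 128 to 172 wells of a plate, of 298 to 352 LEC wells. The values by class therefore do not cover all LECs.

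On the 4 control plates the ligands were highest in different classes. Bmp4 was at 143 ± 64.4 CPM (SD, n = 4) in collector-like LECs, 16.6 ± 12.8 in cluster 0, and 10.9 ± 16.2 in valve-like LECs. On each control plate the collector-like value, from 75.7 to 230 CPM, was above both others, whose highest value was 35.1 CPM. Among the LECs left out, Bmp4 reached 72.9 CPM in interferon, 43.5 in proliferating, and 35.6 in unnamed clusters. Bmp7 was at 45.8 ± 21.8 CPM in cluster 0, 0.92 ± 0.77 in collector-like LECs, and 0.35 ± 0.24 in valve-like LECs, so these ligands did not share a class. Bmp6 was at 11.9 ± 12.4, 11.9 ± 8.99, and 5.73 ± 9.09 CPM in cluster 0, collector-like, and valve-like LECs, with a spread as large as its means. The unnamed LECs that were left out had 15.6 ± 9.92 CPM of Bmp6.

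The receptors differed less. Eng was at 1988 ± 347 CPM in collector-like LECs, 1484 ± 124 in cluster 0, and 1232 ± 173 in valve-like LECs. Acvrl1 was at 314 ± 86.1, 172 ± 43.6, and 233 ± 32.4 CPM in the same order. Bmpr2 at 49.9 ± 22.4, 43.3 ± 19.2, and 40.9 ± 19.2 CPM and Id1 at 78.5 ± 31.8, 124 ± 55.6, and 102 ± 19.2 CPM overlapped between all classes. Bmp2, Smad6, and Smad7 had 0 to 12 counts in each of these 3 classes over the 4 control plates. Among these 3 classes, Eng and Acvrl1 thus had their highest means in the class where Bmp4 was highest. Proliferating LECs, which were left out, had 335 ± 293 CPM of Acvrl1.

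The classes are clusters of the same wells, so differences between them are a description, and the calls of their fits are no test of the members. Those fits called 131 of 13923 genes, 0.941%, between collector-like LECs and cluster 0, 531, 3.81%, between valve-like LECs and cluster 0, and 482, 3.46%, between valve-like and collector-like LECs, and 7 of the 10 members could be fitted. Bmp7 had log2 differences of -5.91 (SE 0.83) and -7.06 (SE 0.88) in the first 2. At a resolution of 2.0 they were -2.61 and -3.16, against the class named capillary-like there in place of cluster 0. Eng had a log2 difference of -0.68 (SE 0.10) in the third, and of -0.81 to -0.58 over 6 alternatives. Bmp4 had a log2 difference of 3.42 (SE 1.14) between collector-like LECs and cluster 0, with 2.21 to 4.10 over the alternatives, and of -4.70 (SE 1.30) between valve-like and collector-like LECs, with -6.12 to -3.58. Among other pathway genes Fstl1 was 1.20 higher on the log2 scale in collector-like LECs than in cluster 0, and Fstl1 (-1.24) and Tgfbr2 (-0.80) were lower in valve-like than in collector-like LECs.

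**Figure D2:**
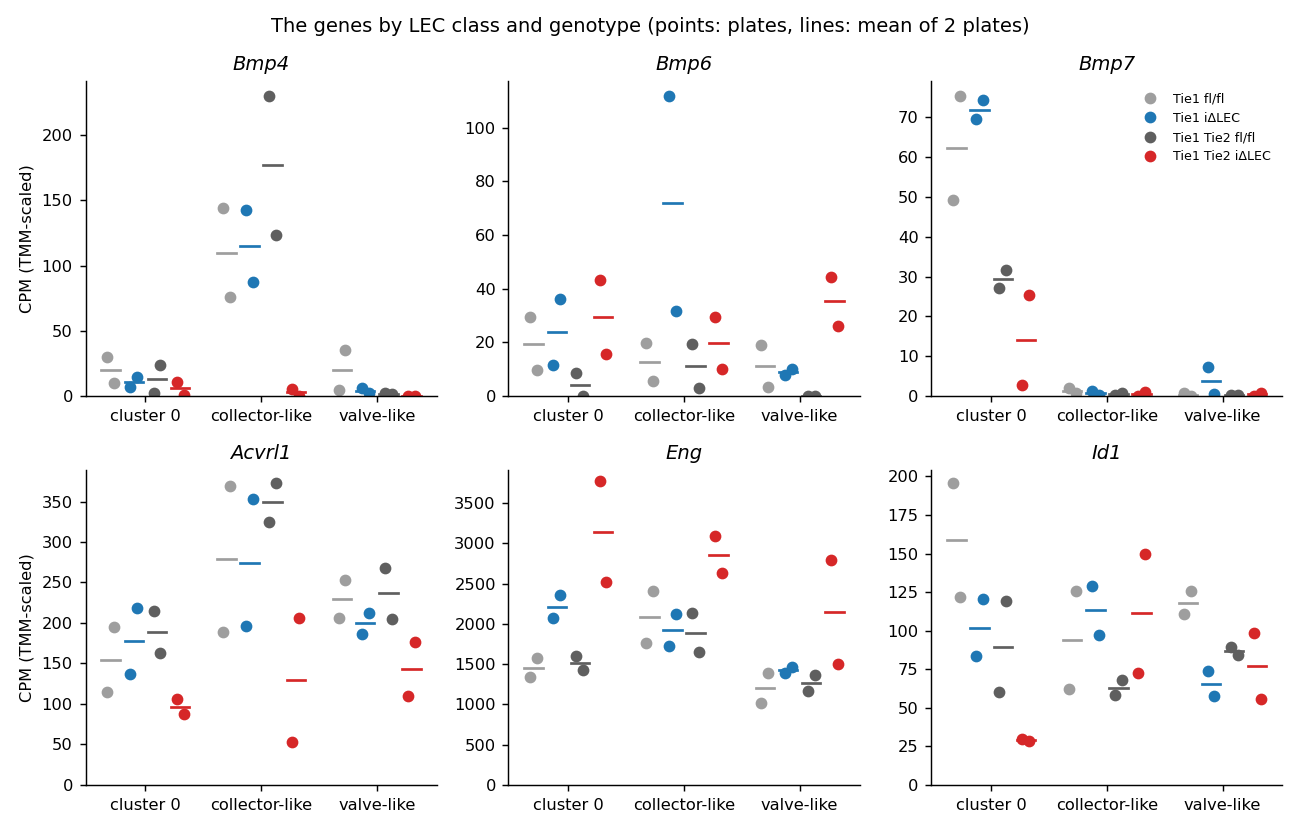
CPM of Bmp4, Bmp6, Bmp7, Acvrl1, Eng, and Id1 in cluster 0, collector-like, and valve-like LECs of each plate, by genotype. Points are plates. Bmp4 in collector-like LECs lay between 75.7 and 230 CPM on 6 plates and at 5.48 and 0.257 CPM in Tie1 Tie2 iΔLEC, and Bmp7 was highest in cluster 0.

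The Bmp4 counts were next split by class. In Tie1 Tie2 fl/fl, collector-like wells supplied 90.4% and 75.3% of the Bmp4 counts of the LECs, and in Tie1 Tie2 iΔLEC 3.31% and 0.106%. Bmp4 in this class was at 144 and 75.7 CPM in Tie1 fl/fl, 142 and 87.3 in Tie1 iΔLEC, 230 and 124 in Tie1 Tie2 fl/fl, and 5.48 and 0.257 in Tie1 Tie2 iΔLEC. There were 79 and 74 collector-like wells in Tie1 Tie2 fl/fl and 10 and 11 in Tie1 Tie2 iΔLEC, and a well whose collector genes had fallen would have been placed in another class. Within the class the log2 change was -6.10 (SE 1.17, unadjusted p = 0.000528, edgeR adjusted p = 0.0754), while 26 of 14577 genes, 0.178%, were called. At a finer clustering (resolution 2.0) the class held 74 and 74 wells in Tie1 Tie2 fl/fl and 31 and 30 in Tie1 Tie2 iΔLEC, and the log2 change was -3.90 (SE 1.37, edgeR adjusted p = 0.388). With the first or the second Tie1 Tie2 iΔLEC plate left out the edgeR adjusted p of Bmp4 was 0.0135 or 0.0214, in fits that called 287 and 762 genes and in which the lone deleted plate is assumed to vary like the other groups. Without the collector-like wells the change of Bmp4 in the remaining LECs was -0.49 (SE 0.50, edgeR adjusted p = 0.861). These wells held most Bmp4 counts of Tie1 Tie2 fl/fl and few of Tie1 Tie2 iΔLEC. Their removal therefore had to shrink the change, and nothing on its cause is read from this value. In sums over cells, fewer cells of a type and less RNA per cell cannot be told apart.

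The other called genes kept their sign, and most of the size of their change, without these wells. Bambi then had a log2 change of -1.96 (edgeR adjusted p = 0.137), Fstl1 -0.64 (adjusted p = 0.224), Id2 1.49 (adjusted p = 0.0586), and Smad1 1.06 (adjusted p = 0.0859), none of them past the threshold, and Hey1 kept its call at -3.05 (adjusted p = 0.00825). Within collector-like LECs Fstl1 was the 1 pathway gene called, at -1.38 (SE 0.21, edgeR adjusted p = 0.0465). The summed collecting vessel markers were at 4742 and 4671 CPM in Tie1 Tie2 fl/fl and 2853 and 1913 in Tie1 Tie2 iΔLEC, and the capillary markers at 4401 and 4348 CPM against 6378 and 5375. The part of this shift in the pathway's values outside the sums above was not tested.

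Eng had higher values with Tie1/-2 deletion in all 3 classes. In cluster 0 it was at 1336 and 1570 CPM in Tie1 fl/fl, 2068 and 2360 in Tie1 iΔLEC, 1601 and 1428 in Tie1 Tie2 fl/fl, and 3775 and 2516 in Tie1 Tie2 iΔLEC. All 4 deleted plates were above all 4 control plates there. The log2 change with Tie1/-2 deletion in cluster 0 was 1.08 (SE 0.23, unadjusted p = 0.000917, edgeR adjusted p = 0.128), where 45 of 15226 genes, 0.296%, were called. In collector-like LECs Eng was at 2130 and 1648 CPM in Tie1 Tie2 fl/fl and at 3084 and 2636 in Tie1 Tie2 iΔLEC, a log2 change of 0.60 (SE 0.24, edgeR adjusted p = 0.361). In valve-like LECs it was at 1165 and 1359 CPM against 2794 and 1507 CPM, a log2 change of 0.81 (SE 0.32, edgeR adjusted p = 0.581), with 13 of 14538 genes, 0.0894%, called. Both Tie1 Tie2 iΔLEC plates were above their controls in each class, and none of these changes passed the test across all genes. Markers of BECs, which carry more Eng, also moved in the summed LECs. The BEC list of 6 genes was at 1291 and 1490 CPM in Tie1 Tie2 fl/fl and 2487 and 1915 in Tie1 Tie2 iΔLEC, with Flt1 at 0 on the first deleted plate, while the venous BEC list went from 920 and 815 to 280 and 351 CPM and the arterial list from 3259 and 3054 to 2077 and 1507 CPM. The BEC list holds Aqp1, a leading gene of cluster 0, and Plvap, which is also a collector marker. It is therefore not particular to BECs. The part of all these markers in the level of Eng was not tested.

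Other members differed from class to class after Tie1/-2 deletion. Id1 in cluster 0 was at 60.3 and 119 CPM in Tie1 Tie2 fl/fl and 30.0 and 28.3 in Tie1 Tie2 iΔLEC (log2 change -1.60, SE 0.48, edgeR adjusted p = 0.369), but in collector-like LECs it was at 58.4 and 67.8 CPM against 72.7 and 150 CPM. Acvrl1 was at 215 and 163 CPM against 106 and 87.0 CPM in cluster 0 (log2 change -0.95, edgeR adjusted p = 0.551) and at 325 and 373 against 53.3 and 206 CPM in collector-like LECs (-1.40, adjusted p = 0.421, or -2.78 with 0.0401 in the fit without the second Tie1 Tie2 iΔLEC plate that called 762 genes). Bmp6 in valve-like LECs was at 0.0794 and 0.239 CPM in Tie1 Tie2 fl/fl and at 44.5 and 26.1 CPM in Tie1 Tie2 iΔLEC (log2 change 7.72, SE 1.62, edgeR adjusted p = 0.149). The controls rest on 1 and 4 counts, the change was 3.97 (adjusted p = 0.592) at a resolution of 2.0, and the valve-like LECs of Tie1 fl/fl had 19.2 and 3.45 CPM. Bmp7 in cluster 0 was at 27.2 and 31.6 CPM against 2.91 and 25.3 CPM (log2 change -1.02, edgeR adjusted p = 0.837). No member was called in any class with either deletion. Tie1 deletion called 0.0% of genes in cluster 0, in collector-like, and in valve-like LECs by edgeR, and whether an effect differed between classes was not tested.

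The droplet libraries held both LECs and BECs and so gave the levels by endothelial type. Values are CPM of UMIs over the population's sum with exact 95% Poisson intervals, which cover counting error only, and there was 1 library per treatment, so no test was possible. The LECs split into capillary-like, valve-like, and proliferating cells and cluster 1. Cluster 1 had the collector markers Mmrn2, Plvap, Procr, and Bgn raised, but its leading genes were Gdf15, Lcn2, Rgs16, Fgl2, Ccl21a, Dusp2, Slc45a3, Ccl2, Lbp, and Lyve1, so it keeps its number. The BECs split into arterial-like, capillary-like, and venous-like cells and unnamed clusters. The sums in the IgG library ran from 1643363 UMIs in 193 arterial-like BECs to 8015104 UMIs in 530 cells of LEC cluster 1.

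In the IgG library both inhibitory Smads were far higher in the named BEC classes than in LECs, and Id1 was higher there too. Smad6 was at 60.2 CPM (49.0 to 73.3) in arterial-like BECs, 21.7 in venous-like BECs, and 11.9 in capillary-like BECs, against 0.677 to 0.749 in capillary-like, valve-like, and cluster 1 LECs. Smad7 was at 369 in arterial-like, 191 in capillary-like, and 88.0 in venous-like BECs, and at 3.39 to 14.1 in the same LEC classes. Id1 was at 714, 669, and 261 in these BEC classes and at 117 to 152 in the LECs. Arterial-like BECs were the highest of the named endothelial classes for all 3 of these genes. Smad6 was thus low in LECs by both methods. Smad7 had a mean of only 0.306 CPM on the control plates, whereas in the IgG library 70 of 530 cells of LEC cluster 1 held it.

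The receptors also had their highest endothelial values in BECs. Acvrl1 was at 308 CPM (282 to 336) in arterial-like BECs, 152 in capillary-like BECs, 123 in venous-like BECs, and 47.8 to 58.2 in the LEC classes, whose intervals overlapped. Eng was at 951 (917 to 985) in venous-like BECs, 631 in capillary-like BECs, 490 in arterial-like BECs, 311 in capillary-like LECs, 241 in LEC cluster 1, and 171 in valve-like LECs, with no overlap of neighbouring intervals. Outside endothelium Eng was at 41.2 in keratinocytes and 29.0 in fibroblasts with cartilage markers. In the other fibroblasts 35 of 45 cells had a UMI of Eng. The part of free RNA in these values was not tested. Bmpr2 was at 366 in venous-like and 353 in arterial-like BECs, whose intervals overlapped, at 175 in capillary-like BECs, and at 128 to 189 in the LEC classes.

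The ligands differed by population. Bmp4 was at 106 CPM (95.2 to 118) in venous-like BECs, 57.8 in arterial-like BECs, and 14.9 to 32.1 in the LEC classes, where cluster 1 was the highest. At a finer clustering the LECs with collector markers were at 58.8 and the LECs with capillary markers at 4.69. Outside endothelium 23 of 45 fibroblasts had a UMI of Bmp4, against 120 of 261 venous-like BECs. The median cell of these held 19097 and 12221 UMIs. Bmp6 was at 71.2 (58.9 to 85.3) in arterial-like BECs, 34.8 in capillary-like BECs, 13.8 in capillary-like LECs and in LEC cluster 1, 5.97 in venous-like BECs, and 2.03 in valve-like LECs. Bmp7 was at 38.3 in keratinocytes, and within endothelium its highest value was 2.94 in capillary-like LECs, from 16 UMIs. Bmp2 was at 115 in fibroblasts with cartilage markers and 93.5 in mural cells, but at 8.80 in venous-like BECs and at 0 of 5444867 UMIs in capillary-like LECs, where the upper limit was 0.677. Among the 6 endothelial classes ranked, the one with the highest level of each of the 10 members was the same at a finer clustering. Proliferating LECs and the unnamed BECs (452 cells with IgG) were not ranked.

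**Figure D3:**
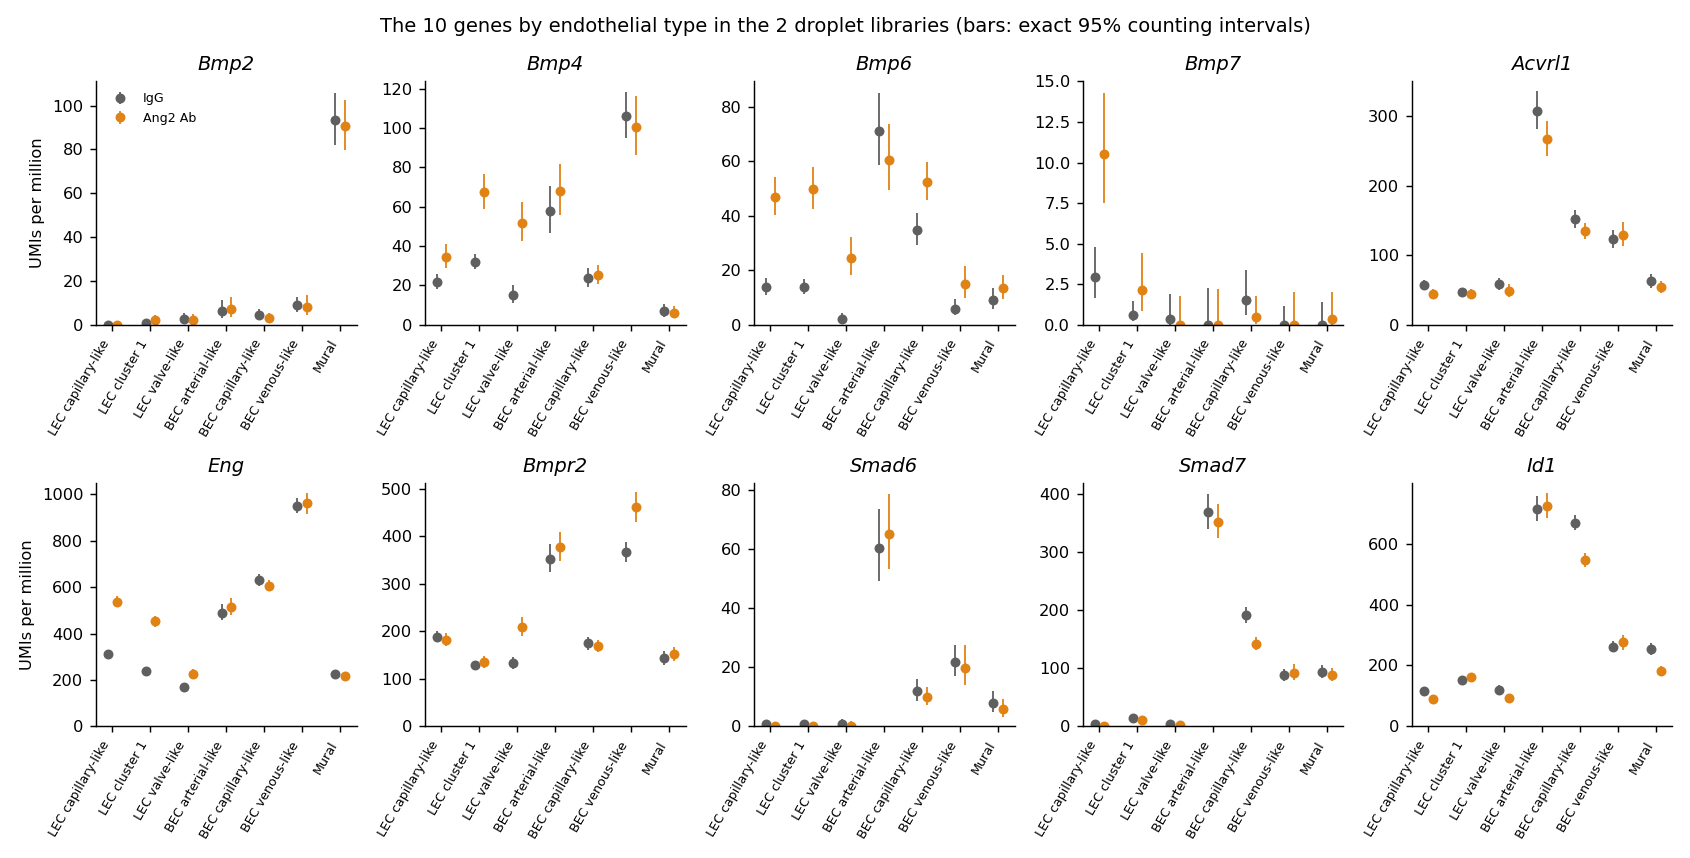
CPM of the 10 members in 7 populations of the droplet libraries, for IgG and Ang2 Ab, with exact 95% intervals for counting error. Smad6 at 60.2, Smad7 at 369, and Id1 at 714 CPM were highest in arterial-like BECs of the IgG library, and Eng in LECs was higher with Ang2 Ab than with IgG in each LEC class shown.

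Ang2 is a ligand of Tie2 that Ang2 Ab binds. In summed LECs of the Ang2 Ab library Bmp4, Bmp6, and Eng were higher than in the IgG library. Ratios are Ang2 Ab over IgG, and past 1.5-fold in either direction lay 809 of 10801 genes, 7.49%, 377 higher and 432 lower. The 10801 genes are those with at least 100 UMIs over the 2 libraries, which all members but Bmp2, Bmp7, and Smad6 had. Of the members with enough UMIs 4 were past 1.5-fold, namely Bmp4, Bmp6, Eng, and Smad7, which was lower.

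Bmp6 was at 12.0 CPM (217 UMIs) with IgG and at 41.8 (408 UMIs) with Ang2 Ab, a ratio of 3.48 (2.95 to 4.12). Bmp4 was at 24.6 and 47.0, a ratio of 1.91 (1.68 to 2.19), which is the opposite direction to Tie1/-2 deletion. Bmp7 was at 1.38 and 5.64, a ratio of 4.07 (2.50 to 6.82) that rests on 25 and 55 UMIs, under the minimum of 100. The 3 ligand genes above were higher with Ang2 Ab, whereas Bmp2 had 34 and 12 UMIs, too few to give a direction (0.653, 0.308 to 1.29).

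Eng was at 254 and 436 CPM, a ratio of 1.72 (1.64 to 1.79), and was higher with Ang2 Ab in each LEC class. The other receptors were closer to 1, with Acvrl1 at 52.6 and 45.6 (0.867, 0.773 to 0.972) and Bmpr2 at 144 and 169 (1.17, 1.10 to 1.24). Smad7 was at 10.5 and 5.74 (0.546, 0.398 to 0.739), Smad6 had 20 UMIs with IgG and 1 with Ang2 Ab, and Id1 was at 135 and 116 (0.863, 0.803 to 0.926). With cells limited to 5% mitochondrial UMIs the Id1 ratio was 1.01, so its direction depended on that limit.

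Within LEC classes Eng had a ratio of 1.73 in capillary-like LECs, 1.88 in cluster 1, and 1.32 in valve-like LECs. The shares of all genes past 1.5-fold were 7.28%, 8.22%, and 4.57% in these classes. Bmp4 was at 21.7 and 34.7 CPM in capillary-like LECs, 32.1 and 67.3 in cluster 1, and 14.9 and 51.8 in valve-like LECs, where the ratio was 3.47 (2.42 to 5.06). Bmp6 had ratios of 3.41, 3.60, and 12.0 (5.15 to 34.3, from 6 and 50 UMIs) in the same order. Both ligands were therefore higher with Ang2 Ab in all 3 classes. The ratios of Id1 were 0.759, 1.06, and 0.761, and those of Bmpr2 were 0.965, 1.05, and 1.57. Smad7 had a UMI in 17 of 474 capillary-like, 70 of 530 cluster 1, and 9 of 248 valve-like cells with IgG. With Ang2 Ab it had a UMI in 6 of 304, 22 of 212, and 3 of 194 cells. Within cluster 1 Smad7 was not past 1.5-fold, although it was in summed LECs. The part of the cell numbers in that difference was not tested.

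BECs of the same libraries did not share most of these differences. In BECs 370 of 10401 genes, 3.56%, were past 1.5-fold. Eng had a ratio of 0.992 (0.963 to 1.02), Bmp4 0.853 (0.754 to 0.966), Smad7 0.941, Id1 0.941, Acvrl1 0.942, and Bmpr2 1.05. Bmp6 was the 1 member past 1.5-fold, at 1.61 (1.41 to 1.84). With 1 library per treatment the difference in ratio between LECs and BECs has no replicate check.

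Other pathway genes past 1.5-fold in LECs included Tgfbr3 (1.58), Fst (1.83), and Crim1 (1.57), which were higher with Ang2 Ab, and Gdf15 (0.49), Bambi (0.49), Hey1 (0.62), and Cdkn1a (0.66), which were lower. Tgfbr3 is a co-receptor, Fst and Crim1 are extracellular antagonists, Gdf15 is a stress-induced ligand, and Cdkn1a encodes a cell cycle inhibitor. In BECs Ltbp1, which encodes a binding protein of latent TGF-beta, was at 0.58. In the LECs the summed capillary markers were at 2992 CPM with IgG and 4492 with Ang2 Ab, the collector markers at 1108 and 639, the valve markers at 780 and 1094, and the LEC defining markers at 15274 and 11812. The part of these shifts in the ratios was not tested.

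Set side by side, the 3 models gave these values in LECs. Eng had log2 changes of 0.32 ± 0.23 (SE) with Tie1 deletion and 0.90 ± 0.23 with Tie1/-2 deletion and a ratio of 1.72 with Ang2 Ab. Bmp6 had log2 changes of 1.20 ± 0.66 and 1.99 ± 0.68 and a ratio of 3.48. Id1 had log2 changes of -0.42 ± 0.25 and -0.70 ± 0.25 and a ratio of 0.863. The estimates of Eng and Bmp6 were therefore above their controls in each model, and those of Id1 were below with both deletions and, apart from the stricter mitochondrial limit, with Ang2 Ab, although none of the tested changes passed across all genes. Bmp4 was below its controls with both deletions, in plate means, and above with Ang2 Ab. Bambi and Hey1, which fell with Tie1/-2 deletion, had ratios of 0.49 and 0.62 with Ang2 Ab. By class, Bambi was lower past 1.5-fold in capillary-like, cluster 1, and valve-like LECs. Hey1 was so in capillary-like LECs but not in cluster 1. With Tie1 deletion the log2 changes of Bambi and Hey1, -0.41 ± 0.40 (SE) and -0.04 ± 0.36, gave no direction. Id2 had a ratio of 1.45, Smad1 of 1.32, and Fstl1 of 0.70, on the same side of their controls as with Tie1/-2 deletion. The plates and the droplets differ in strain, sort, method, and days of treatment (from P1 against P16 to P21). The paper also gives an age after P21 for the plate LECs. These values are therefore not compared in size.

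**Figure D4:**
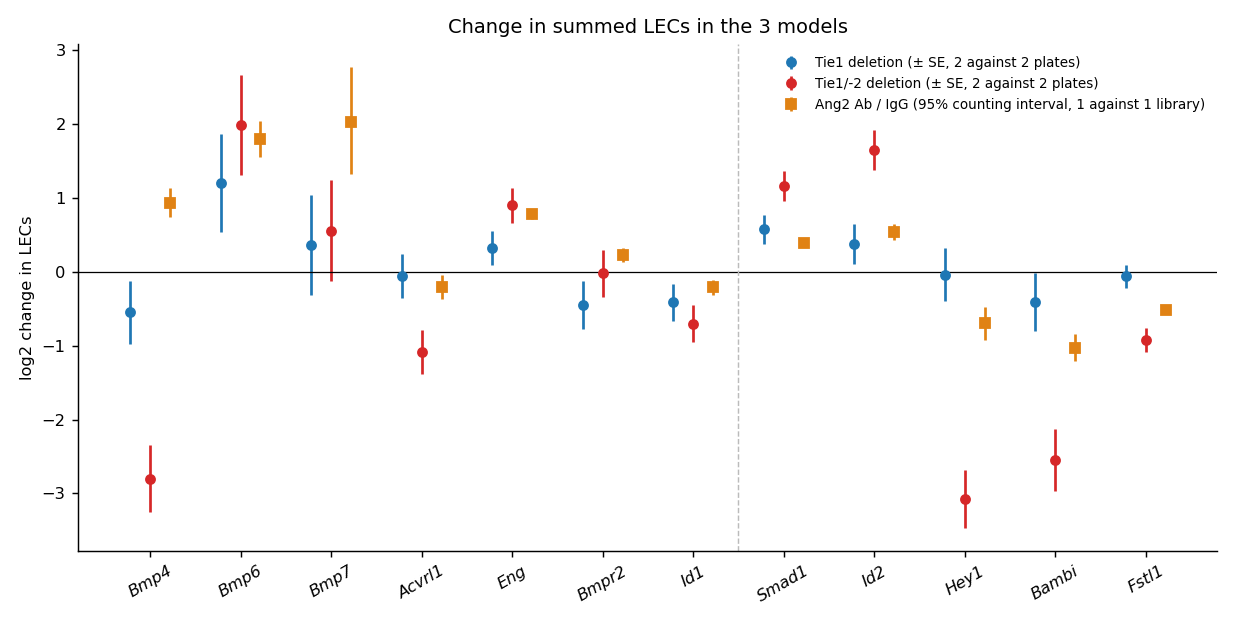
Change in LECs on the log2 scale of 7 members and of Smad1, Id2, Hey1, Bambi, and Fstl1, for Tie1 deletion and Tie1/-2 deletion (estimate ± SE, 2 plates against 2) and for Ang2 Ab against IgG (ratio of 1 library to 1, with the 95% counting interval). Bmp4 lay at -2.80 with Tie1/-2 deletion and, as a ratio, at 1.91 with Ang2 Ab, while Eng lay above 0 in all 3.

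Finally, the genes whose levels went most closely with each member were found over 24 points, the 3 LEC classes of the 8 plates, among 9728 genes whose mean was 10 CPM or more. Pearson correlations of log2(CPM + 1) are given as a description, since points share plates, depth, and layout. Bmp4 was most like Tinagl1 (0.861), Ushbp1 (0.830), and Slc3a2 (0.828). Acvrl1 was most like Tek (0.888), Ackr3 (0.832), and Hey1 (0.815), and Tek was itself deleted in some of these plates. Eng was most like Eef1a1 (0.863), Actb (0.858), and Lhfp (0.849), of which the first 2 are expressed in every cell. Bmp7 was most like P2rx2 (0.894), Reln (0.809), and Pld5 (0.787), and Bmp6 like Stx2 (0.704), Trip4 (0.677), and Thbs1 (0.669). The weakest likeness was that of Id1, with Tbc1d8 (0.629), Hnrnpul1 (0.627), and Galt (0.612), and Bmpr2 lay between, with Rad23b (0.759), Rad21 (0.707), and Erlec1 (0.700).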

How the data were processed

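Smart-seq libraries of sorted LECs (8 plates, 2 per genotype) and 10x libraries of CD31-sorted skin cells (1 per treatment) were used. As deposited by the authors, the plate tables hold counts of reads for each gene in each well, and the droplet matrices hold UMI counts of filtered barcodes, both without normalization. The submitters' processing notes name TopHat2 2.1.1, SAMtools 0.1.18, featureCounts, Cell Ranger 2.1.1, R 3.5.1, Seurat 4.0 and 4.0.6, and mm10, without their roles. The plate tables were joined on 42520 genes, which held 95.5% to 96.7% of the counts, and spike-ins (0.0832% to 0.155% of counts where listed) were left out. Strandedness of the counting is not given in the sources used here, so reads of overlapping genes cannot be told apart.

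Wells in which 1000 or more genes were detected were clustered, as were droplet cells with 500 or more genes and no more than 10% mitochondrial UMIs (scanpy 1.11.5, leidenalg 0.10.2; 2000 variable genes, 30 components, 15 neighbors, resolution 1.0) without the pathway genes. A cluster was named from at least 3 markers raised at least 1.5-fold and detected in at least 10% of its cells. Wells that resembled fibroblasts (226) or keratinocytes (111) were removed, although they still carried Prox1 at 394 to 1017 CPM. Scrublet marked 0.582% and 0.0675% of droplet cells, so it cannot be taken to have found the doublets.

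Counts were summed per plate, or per class and plate (classes of at least 10 wells), and tested in 1 fit of all 8 plates by the quasi-likelihood test of edgeR 4.0.16 after filterByExpr and TMM scaling, with Benjamini-Hochberg adjustment over all genes and a threshold of 0.05. The summed LECs held 64728120 to 102921989 counts per plate. Replicates differed by more than sampling noise. Ang2 Ab was compared with IgG by ratios of summed UMIs with exact 95% intervals and no test. The fit was also run on counts simulated with the spread of these data, and the outcome is not given here. As alternatives, low counts were left unfiltered, RLE factors or DESeq2 1.42.0 took the place of TMM or edgeR, no cluster was removed, and other fits had the table layout or a replicate block as a term, a resolution of 2.0, or only the 4 plates of a contrast, or left out each plate in turn. Keeping only wells of 50000 counts or more, and removing collector-like wells, were added after seeing the data. R 4.3.3, limma 3.58.1, Python 3.11.15, numpy 2.4.6, pandas 2.3.3, scipy 1.17.1, and matplotlib 3.10.9 were used. Promoters are RefSeq's and coordinates GENCODE's, both of GRCm38. The members, gene lists, and markers were chosen with earlier results of these data known. The 10 members were named in every comparison, other pathway genes where called or past 1.5-fold, for a list with no such gene the 2 highest on control plates, and the 3 genes most like each member with a mean of at least 10 CPM. Results of 1 listed pathway gene are not reported here.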

Additional observations from a re-analysis of the deposited data

Results flagged for a closer look

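Values in summed LECs and by class on the 4 control plates were screened for a sample that stood apart. There were 28 sets of values, of which chance alone flags about 1 in 20. In valve-like LECs, Bmp4 was at 35.1 CPM on the second Tie1 fl/fl plate and at 1.43 to 4.86 CPM on the other 3 control plates. In collector-like LECs, Id1 was at 126 CPM on the same plate and at 58.4 to 67.8 CPM on the other 3. The plate is 1 of the identifier layout, and its part in these values was not tested.

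The plate tables of the identifier layout carry a row for the human ENG gene, which no comparison above used. It held 8 counts on the second Tie1 fl/fl plate, 412 on the first Tie1 Tie2 fl/fl plate, 8 on the second Tie1 iΔLEC plate, and 14 on the first Tie1 Tie2 iΔLEC plate, against 134647 to 220500 counts of mouse Eng on these 4 plates. None of the labelled genotypes includes a human ENG transgene.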

How the results depend on the processing

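The number of genes called with Tie1 deletion was 0 and became 286 when low counts were not filtered and 226 under DESeq2. With Tie1/-2 deletion it was 229 and became 1208 and 1125 in the same order and 140 without collector-like wells. For the difference it was 22 and became 637, 506, and, with layout as a term, 10. For the average it was 186 and became 1088, 969, and, without collector-like wells, 114. At a resolution of 2.0 the class named capillary-like took the place of cluster 0. It held 30 and 34 wells in Tie1 Tie2 iΔLEC, against 88 and 100 wells of cluster 0. Tie1/-2 deletion then called 14 genes in that class and 88 in collector-like LECs. Tie1 deletion called 1 in collector-like LECs, and collector-like against capillary-like LECs called 54. At a resolution of 1.0, collector-like against cluster 0 called 236 with all 8 plates. A minimum of 20 UMIs put 1734 genes past 1.5-fold with Ang2 Ab.

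With 1 plate left out, counts ran from 0 to 0 with Tie1 deletion, 82 to 216 with Tie1/-2 deletion, 2 to 16 for the difference, and 50 to 153 for the average. In cluster 0 they ran from 0 to 1 and from 12 to 52, in collector-like LECs from 0 to 1 and from 10 to 762 (287 and 762 without the first and the second Tie1 Tie2 iΔLEC plate), and in valve-like LECs from 0 to 0 and from 9 to 28, with Tie1 and Tie1/-2 deletion. Between classes they ran from 28 to 66 (collector-like against cluster 0), 224 to 317 (valve-like against cluster 0), and 190 to 308 (valve-like against collector-like).

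Plates of the Tie1 strain share the numbers 1 and 2, and the deviations of same-numbered plates correlated at 0.112 over 2 pairs, which also share layout and sex, so they were not treated as paired. In the Tie1 Tie2 strain, whose titles share no numbers, the plates that share a layout correlated at 0.102. With the replicate block 0 genes were called with Tie1 deletion, 20 for the difference, and 145 for the average.

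Over the alternatives that left out no plate, values of named genes kept their direction and their side of the threshold in 491 cases, lost a call in 21, gained one in 17, moved without a test in 8, and turned sign in 12. With a plate left out these numbers were 482, 80, 4, and, for turned signs, 22. Some signs turned, in log2 values. With Tie1 deletion Smad7 was 0.0597 with no cluster removed and 0.24 with the replicate block. With Tie1/-2 deletion Bmp2 was -0.45 with layout as a term. Without collector-like wells Bmpr2 was 0.0775 and Smad7 -1.66 with Tie1/-2 deletion, Bmp4 0.48, Bmp7 -0.0431, and Smad7 -0.36 for the difference, and Smad7 -1.48 for the average. At a resolution of 2.0 Acvrl1 was 0.12 in the class named capillary-like and Id1 0.11 in valve-like LECs with Tie1/-2 deletion. With all 8 plates Bmp7 was 0.0513 between valve-like and collector-like LECs.

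With 1 plate left out the ranges that crossed 0 were, with Tie1 deletion, Acvrl1 -0.37 to 0.36, Bmp7 -0.15 to 1.19, and Smad7 -1.77 to 2.67. With Tie1/-2 deletion they were Bmp2 -4.80 to 4.10, Bmp7 -0.69 to 1.18, Bmpr2 -0.35 to 0.21, Smad7 -1.68 to 2.56, Bmp4 in cluster 0 -3.32 to 1.48, Bmp6 in collector-like LECs -0.15 to 2.75, and Id1 in valve-like LECs -0.60 to 0.23. For the difference they were Bmp2 -13.29 to 0.24, Bmp6 -0.50 to 1.58, Bmp7 -1.06 to 0.83, and Smad7 -1.02 to 3.44, and for the average Bmp7 -0.16 to 0.86 and Smad7 -1.25 to 2.16. The cause of these turns was not tested. DESeq2 and the unfiltered fit also called Bmp4 and Bmp6 in the average of both deletions, and Bmp2, which rests on single plates. Few counts limit what can be read of Bmp2, Smad6, and Smad7 on the plates and of Bmp7 in droplets.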
